A study of Mus musculus with 6 samples.

Results

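The 9 genes described here encode 6 ligands of the bone morphogenetic protein (BMP) family, Bmp2, Bmp3, Bmp4, Bmp6, Bmp7 and Gdf10, and 3 secreted BMP antagonists, Grem1, Chrdl1 and Bmper. They were taken by gene symbol from the 31053 genes counted in single-cell libraries of mouse inguinal white adipose tissue (iWAT). The cells were stromal vascular cells, the non-adipocyte fraction of the digested tissue, from which immune cells had been removed by sorting against CD45. All mice were male C57BL/6 animals, of the substrain C57BL/6JN or C57BL/6J, with no transgene named, and the inguinal lymph node had been dissected away. Young mice were 9 weeks and aged mice 57 weeks old. All mice first lived at 30 °C for 3 weeks. Over the last 2 weeks they were single housed and either stayed at 30 °C (thermoneutrality, TN) or were moved to 6 °C, for the final 3 days (3D cold) or for 14 days (14D cold). There were 6 libraries, 1 for each age and temperature. The number of mice behind a library and the substrain of each library are not given in the sources used here.

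BMPs are secreted dimers that bring type I and type II receptor kinases together, which then phosphorylate Smad1, Smad5 and Smad9 and switch on targets such as the Id genes. Secreted antagonists bind the ligands outside the cell and limit which receptors they reach. In adipose tissue, Bmp4 is known for committing precursors to the adipocyte lineage, and Bmp7 for promoting brown and beige adipocytes, which burn fuel to make heat.

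The libraries held between 52068837 and 88508349 UMIs (unique molecular identifiers, which count captured transcripts) in 68103 barcodes, of which 57326 were kept as cells. The aged 14D cold library stood apart, with a median of 2588 UMIs per barcode and 38.2% of its barcodes under 2000 UMIs. Depth also went with age, without overlap. The young libraries had medians of 8954, 7810 and 7225 UMIs per barcode at TN, 3D cold and 14D cold. The aged libraries had 6232, 6540 and 2588. The part of depth in the age differences was not tested beyond thinning cells to 2000 UMIs. Any 2 libraries shared between 30 and 44 barcodes. Cells were clustered without the 9 genes and without the other BMP pathway genes, and clusters were named from markers. This gave 16028 Dpp4+ fibroblasts, 13948 Icam1+ preadipocytes and 3721 Cd142+ fibroblasts, which are the 3 classes of adipocyte stem and progenitor cells (ASPCs), as well as 3968 endothelial cells and 1240 smooth muscle cells and pericytes (SMC/pericytes). A further 441 immune cells, 417 Schwann cells and 79 lymphatic endothelial-like cells were not tested, and 17484 cells were in clusters without a name. These unnamed cells were unevenly spread. After 14 days of cold their share of the cells kept was 53.6% at the aged and 32.1% at the young age. It was lower at TN and 3D cold, down to 17.1% for aged TN. The 5831 unnamed cells of aged 14D cold had a median of 1676 UMIs. Of the 3098 cells of the unnamed cluster 9, 2709 were from aged 14D cold. Class levels leave all unnamed cells out. In the aged 14D cold library 53.2% of the Dpp4+ fibroblasts, 1316 cells, came from cluster 10, against 6.23% to 11.9% in the other libraries. The cells of cluster 10 had 2.14 times the median UMIs of their library, and 34.2% of them had a high doublet score. Each result in Dpp4+ fibroblasts was therefore recomputed without that cluster. Levels below are the UMIs of a gene per 1000000 UMIs of a class in a library (CPM). A class sum cannot tell fewer cells with a transcript from fewer transcripts per cell.

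Among the ligands, Bmp3 and Bmp7 were mostly transcripts of Dpp4+ fibroblasts. Bmp3 (chr5:98854415-98884396, plus strand, GRCm38), an atypical family member known to oppose other BMPs, reached 50.5 ± 20.2 CPM (SD, n = 6 libraries) in Dpp4+ fibroblasts and 7.85 ± 5.22 CPM in SMC/pericytes, without overlap of the libraries. The other 3 tested classes averaged 0.328 to 1.51 CPM and overlapped with their neighbours in rank. Dpp4+ fibroblasts held 84.5% of the 7640 Bmp3 UMIs of all cells kept. Bmp7 (chr2:172868012-172940321, minus strand) stood at 88.8 ± 6.59 CPM in Dpp4+ fibroblasts, from 80.4 to 99.0 CPM, and at 13.7 ± 5.40 CPM in SMC/pericytes. Dpp4+ fibroblasts held 75.5% of its 15193 UMIs. The 10 Dpp4+ markers summed to 2286 to 5954 CPM in SMC/pericytes, against 14293 to 18703 CPM in Dpp4+ fibroblasts. In the SMC/pericyte clusters 14 and 17, 16.5% and 25.7% of the cells had a high doublet score. The part of Dpp4+ transcripts in the SMC/pericyte levels given here and below was not tested. Icam1+ preadipocytes, the committed adipocyte precursors, were lowest in both genes, with 0.0447 to 0.689 CPM of Bmp3 and 0.224 to 1.62 CPM of Bmp7.

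Bmp2 (chr2:133552159-133562885, plus strand), a ligand best known from bone formation, was spread more widely. It averaged 172 ± 25.2 CPM in Dpp4+ fibroblasts and 124 ± 17.9 CPM in SMC/pericytes. These ranges overlapped, although the Dpp4+ value was higher within each of the 6 libraries. Icam1+ preadipocytes (52.2 ± 6.50 CPM) and Cd142+ fibroblasts (42.3 ± 8.94 CPM) overlapped as well, and endothelial cells were lowest at 15.9 ± 5.61 CPM. In the 79 lymphatic endothelial-like cells Bmp2 was listed at 264, 1006 and 616 CPM in the young TN, 3D cold and 14D cold libraries, and at 667, 1120 and 0 CPM in the aged ones. The 0 came from 4 cells, and 3 UMIs there would have been 139 CPM.

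Bmp4 (chr14:46383520-46390669, minus strand) was highest in Icam1+ preadipocytes at 47.9 ± 11.9 CPM and Dpp4+ fibroblasts at 42.2 ± 9.63 CPM, which overlapped. All 6 Dpp4+ values lay above the 6 values of Cd142+ fibroblasts, which averaged 24.3 ± 2.73 CPM. SMC/pericytes and endothelial cells followed at 15.8 ± 6.11 and 14.1 ± 3.76 CPM, again overlapping. Gdf10 (chr14:33923587-33937983, plus strand), the ligand closest to Bmp3 in sequence, was highest in Cd142+ fibroblasts with 698 ± 141 CPM. It reached 127 ± 44.1 CPM in Icam1+ preadipocytes, 69.9 ± 28.2 CPM in Dpp4+ fibroblasts and 53.3 ± 19.5 CPM in SMC/pericytes, each overlapping with the next. Gdf10 was left out of the Cd142+ markers, so that its level there did not come from the naming.

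Bmp6 (chr13:38345107-38500302, plus strand), known as the endothelial signal that sets hepcidin in the liver, was the ligand with its highest level in endothelial cells. They averaged 66.1 ± 13.5 CPM, against 17.2 ± 2.49 CPM in Dpp4+ fibroblasts, and the ranges of 51.9 to 88.0 and 14.5 to 21.3 CPM did not overlap. SMC/pericytes followed at 11.7 ± 2.69 CPM, and Cd142+ fibroblasts and Icam1+ preadipocytes were at 0.840 ± 0.468 and 0.322 ± 0.207 CPM. By number, Dpp4+ fibroblasts, the larger class, held 51.8% of the 4177 Bmp6 UMIs of all cells kept, and endothelial cells held 26.3%. In cells thinned to 2000 UMIs, Bmp6 was detected in 11.8% to 15.99% of endothelial cells over the libraries. In Icam1+ preadipocytes, which were deeper before thinning with a median of 7218 to 10984 UMIs against 2702 to 4125, it was detected in 0% to 0.235%. Without thinning, these shares were 17.4% to 27.3% and 0.130% to 0.454%.

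Chrdl1 and Bmper differed in the class of their highest level. Chrdl1 (chrX:143285674-143394262, minus strand), chordin-like 1, was highest in Cd142+ fibroblasts at 311 ± 42.5 CPM, then in Dpp4+ fibroblasts at 127 ± 29.4 CPM, and these ranges did not overlap. In Icam1+ preadipocytes it was at 4.44 ± 2.00 CPM. Bmper (chr9:23223076-23485200, plus strand), a homologue of the fly gene crossveinless-2 whose product binds BMPs at the cell surface, was highest in Icam1+ preadipocytes at 184 ± 34.8 CPM, followed without overlap by Cd142+ fibroblasts at 91.8 ± 28.9 CPM, and Dpp4+ fibroblasts held 12.2 ± 5.09 CPM. Icam1+ preadipocytes contributed 62.7% of the 36213 Bmper UMIs. Grem1 (chr2:113746164-113758646, minus strand), gremlin, which binds Bmp2, Bmp4 and Bmp7, was close to undetected, with 49 UMIs in all cells kept. Of these, 14 were in Schwann cells, 10 from the aged TN and 4 from the aged 3D cold library, 12 in Cd142+ fibroblasts and 11 in SMC/pericytes. Grem1 passed the count filter of no class and was not tested.

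**Figure D1:**
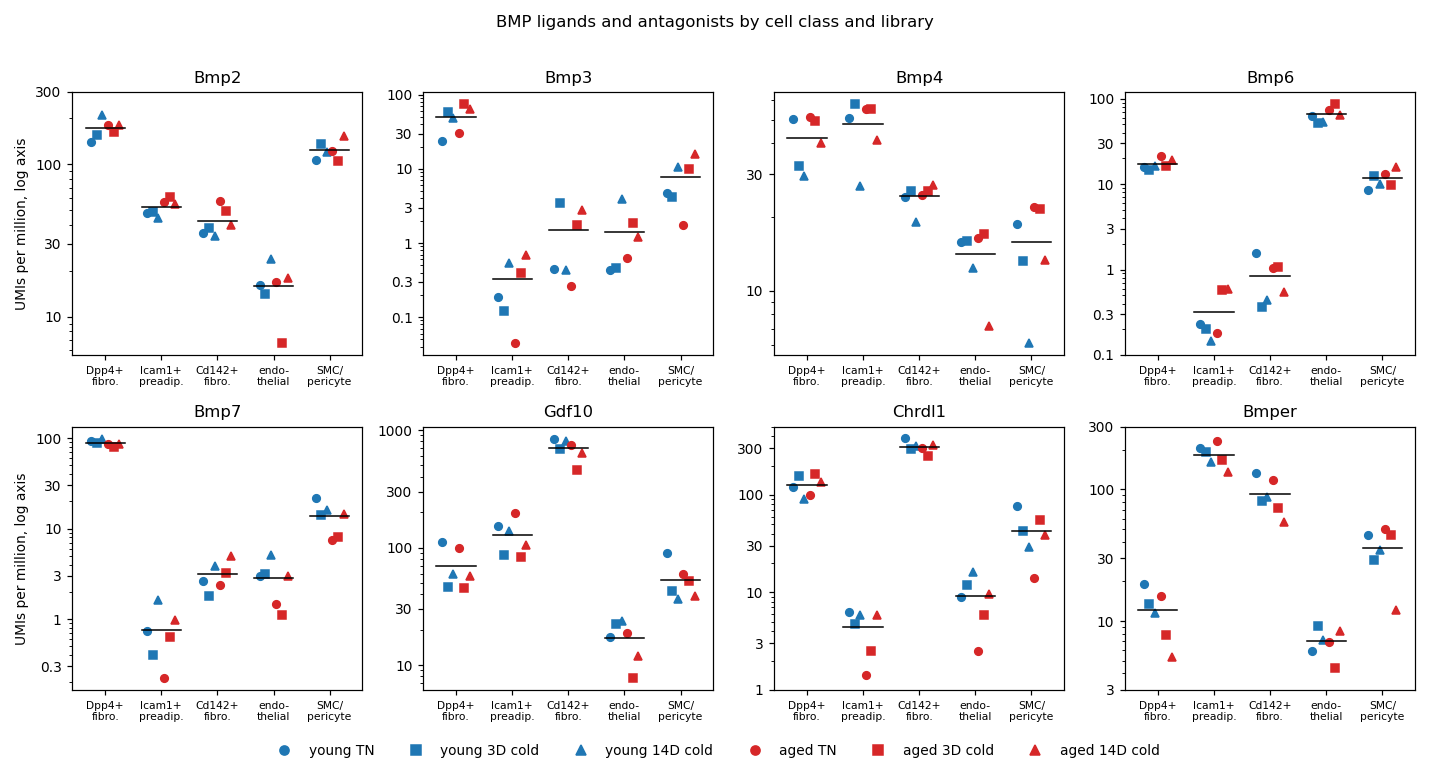
Level in CPM on log axes for 8 of the 9 genes in the 5 tested classes, with 1 point per library coloured by age and shaped by temperature and a line at the mean of 6 libraries (values at 0 are not drawn). Bmp3 and Bmp7 were highest in Dpp4+ fibroblasts, Gdf10 and Chrdl1 in Cd142+ fibroblasts, Bmper in Icam1+ preadipocytes and Bmp6 in endothelial cells.

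The classes were not uniform inside. Within Dpp4+ fibroblasts, pooled over libraries, Bmp3 was at 136 CPM in cluster 8, whose leading genes include Dmkn, Krtdap and Sbsn besides Bmp3 itself, and at 25.4, 29.0 and 35.4 CPM in clusters 1, 7 and 10. Cluster 8 was also higher than these 3 clusters in Bmp2 (277 against 129 to 161 CPM), Bmp4 (55.2 against 37.2 to 40.0 CPM), Bmp6 (36.8 against 9.31 to 13.03 CPM) and Bmp7 (126 against 76.4 to 85.2 CPM). It was lower in Gdf10 (19.7 against 76.1 to 97.0 CPM), Chrdl1 (57.5 against 120 to 188 CPM) and Bmper (3.11 against 12.2 to 18.6 CPM). The Dpp4+ cluster 21, of 210 cells, also had Krtdap, Sbsn and Dmkn among its leading genes. It was at 88.2 CPM for Bmp3 and 125 CPM for Bmp7, but at 26.8 CPM for Bmp2 and 19.2 CPM for Bmp4. Endothelial Bmp6 was at 108 CPM in cluster 11, with the capillary genes Car4, Aqp1 and Gpihbp1 in front. It was at 30.2 CPM in cluster 15, led by genes such as Sema3g, Gja5 and Hey1, and at 5.59 CPM in cluster 16, with Plvap and Lrg1. In every library cluster 11 lay above cluster 15. These differences between clusters are descriptions, for which no test was made.

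**Figure D2:**
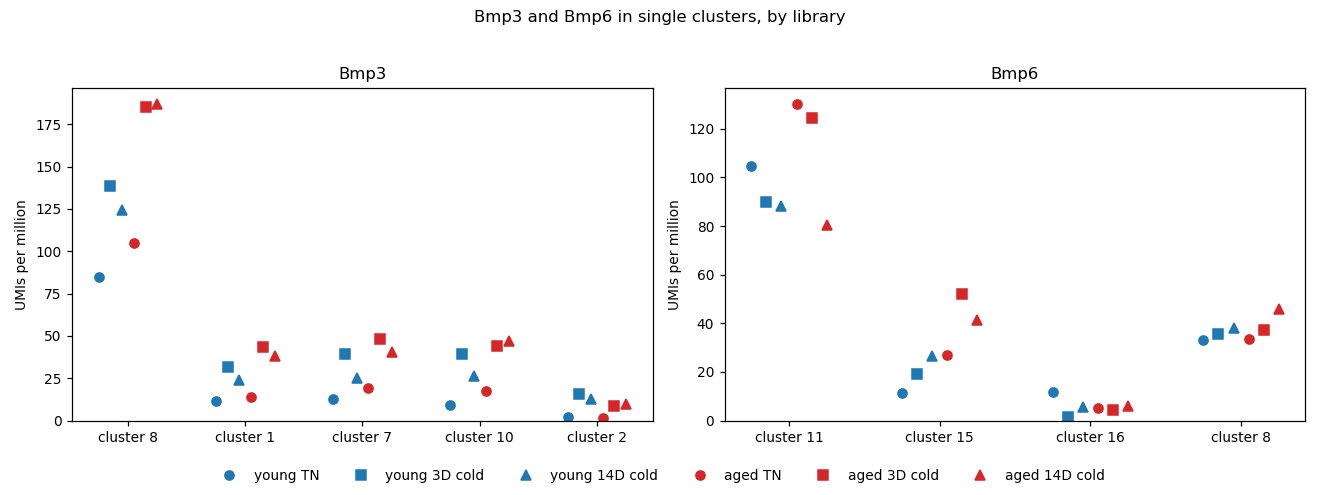
Level in CPM of Bmp3 in clusters 8, 1, 7, 10 and 2 and of Bmp6 in clusters 11, 15, 16 and 8, 1 point per library coloured by age and shaped by temperature. Bmp3 was highest in cluster 8 of each library, and within each of the 5 clusters the 4 cold libraries lay above the TN library of the same age; Bmp6 was highest in cluster 11.

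The first comparison was between TN, 3D cold and 14D cold, with age as a term. In Dpp4+ fibroblasts, known as early progenitors, the level of 4 of the 8 genes tested differed with temperature. Of all genes tested there, 7.08% did. Bmp3 rose, and Gdf10, Bmper and Bmp4 fell. Marker sums also moved with temperature in this class. The 6 Spp1+ fibroblast markers summed to 734, 303 and 523 CPM in young and 68.5, 21.8 and 44.2 CPM in aged libraries at TN, 3D cold and 14D cold, with 4 to 6 of them having a UMI. The 6 mesothelial markers summed to 4.94, 8.81 and 11.5 CPM in young and 8.19, 26.2 and 28.7 CPM in aged libraries, where 2 or 3 of them had a UMI. The 10 Cd142+ markers, all with a UMI in every library, were highest at 3D cold at both ages, with 404, 600 and 344 CPM in young and 567, 822 and 696 CPM in aged libraries. The part of these sums in the temperature differences was not tested.

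Bmp3 was at 23.7 CPM in the young TN library, 59.4 CPM in young 3D cold and 48.8 CPM in young 14D cold. In the aged libraries it was at 30.8, 76.2 and 64.1 CPM in the same order. All 4 cold libraries exceeded both TN libraries. The log2 fold change was 1.29 ± 0.073 (SE) for 3D cold over TN and 1.06 ± 0.073 for 14D cold over TN (edgeR's quasi-likelihood test of both terms, adjusted p = 6.88e-05). The share of Dpp4+ cells with a Bmp3 UMI at 2000 UMIs per cell was 4.35% and 5.88% at TN and 9.10% to 12.9% in the cold. In endothelial cells it was 0% to 0.352%. Without thinning, the Dpp4+ shares were 13.8% to 29.0%, at a median of 7086 to 9600 UMIs.

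Gdf10 moved the other way. It was at 112, 46.4 and 59.2 CPM in the young TN, 3D cold and 14D cold libraries and at 99.0, 45.6 and 57.4 CPM in the aged ones. Both TN libraries exceeded all 4 cold libraries, and 3D cold was the lowest at each age. Its log2 fold changes were -1.22 ± 0.074 for 3D cold and -0.85 ± 0.073 for 14D cold (adjusted p = 6.88e-05). At 2000 UMIs per cell, 16.7% and 14.8% of Dpp4+ cells had a Gdf10 UMI at TN and 6.72% to 10.2% in the cold. Endothelial cells had 1.52% to 2.83%, and without thinning the Dpp4+ and endothelial shares were 19.5% to 47.3% and 2.66% to 5.66%.

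Bmper fell from 19.2 CPM at TN to 13.6 CPM after 3 days and 11.4 CPM after 14 days of cold in young libraries. In the aged libraries it was at 15.6, 7.80 and 5.33 CPM. The TN libraries lay above all cold libraries, with a log2 fold change of -0.74 ± 0.162 for 3D cold and -1.06 ± 0.168 for 14D cold (adjusted p = 0.00887). With equal cells per library thinned to 2000 UMIs it was -0.75 for 14D cold (adjusted p = 0.172), and the call was lost. Bmp4 was at 50.4, 32.5 and 29.5 CPM in the young libraries and at 51.3, 49.4 and 40.1 CPM in the aged ones, again without overlap of TN and cold. Its log2 fold change was -0.37 ± 0.118 for 3D cold and -0.57 ± 0.120 for 14D cold (adjusted p = 0.0366). Without the young TN library the 14D value was -0.31 (adjusted p = 0.187), and Bmp4 was no longer called.

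Chrdl1 was highest after 3 days of cold at both ages, with 119, 154.5 and 91.0 CPM in young and 98.8, 164 and 135 CPM in aged libraries at TN, 3D cold and 14D cold. Its log2 fold change of 0.51 ± 0.141 for 3D cold did not pass the threshold (adjusted p = 0.0667). It was 0.83 without the young TN library (adjusted p = 0.00489) and 0.24 without the aged TN library (adjusted p = 0.0303), and passed in both cases. It also passed at 0.52 without the young or the aged 14D cold library (adjusted p = 4.56e-05 and 7.70e-06) and at 0.51 without cluster 10 (adjusted p = 0.000194). Bmp2, Bmp6 and Bmp7 did not pass, with adjusted p = 0.157, 0.190 and 0.303. Bmp2 passed without cluster 10, with a log2 fold change of 0.44 for 14D cold (adjusted p = 0.00958), without the aged TN library (0.53, adjusted p = 0.0319) and without the aged 14D cold library (0.55, adjusted p = 0.000301). Bmp3, Gdf10, Bmper and Bmp4 were called with and without cluster 10.

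In Icam1+ preadipocytes 3 of the 6 genes tested differed with temperature, against 5.85% of all genes, and these were the same 3 that fell in Dpp4+ fibroblasts. Gdf10 was at 154, 85.7 and 138 CPM at TN, 3D cold and 14D cold in young libraries and at 196, 83.5 and 105 CPM in aged libraries. The 3D cold libraries were the lowest at both ages, and TN did not overlap with cold. Relative to TN, it changed by a log2 value of -1.02 ± 0.134 for 3D cold and -0.50 ± 0.134 for 14D cold (adjusted p = 0.00619). Bmper, which had its highest level in these cells, was at 208, 193 and 163 CPM in young and 233, 168 and 137 CPM in aged libraries. It fell by step at each age, with -0.26 ± 0.098 for 3D cold and -0.54 ± 0.0996 for 14D cold (adjusted p = 0.0275). Bmp4 was low only after 14 days of cold. It was at 50.6, 58.2 and 26.9 CPM in young and 55.2, 55.5 and 41.3 CPM in aged libraries, with log2 fold changes of 0.14 ± 0.134 for 3D cold and -0.65 ± 0.140 for 14D cold (adjusted p = 0.0207). None of the 3 calls remained without the young 3D cold library (adjusted p = 0.208 for Gdf10, 0.260 for Bmper and 0.223 for Bmp4) or without the aged 3D cold library (0.197, 0.241 and 0.123). The log2 fold changes then were -0.996 and -1.03 for Gdf10, -0.54 for Bmper and -0.65 for Bmp4. Bmp3 and Bmp6 were under the count filter in this class. The 10 adipocyte markers, of which 9 or 10 had a UMI, summed to 74.9, 83.6 and 120.3 CPM in young and 63.6, 106 and 139.04 CPM in aged libraries, highest after 14 days of cold, and their part in these differences was not tested.

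In Cd142+ fibroblasts 2 of the 6 genes tested differed with temperature, against 3.17% of all genes. Bmper was at 134, 82.2 and 87.4 CPM at TN, 3D cold and 14D cold in young libraries and at 119, 72.5 and 56.7 CPM in aged libraries. Both TN libraries lay above all cold libraries. This gave log2 fold changes of -0.72 ± 0.116 for 3D cold and -0.77 ± 0.124 for 14D cold (adjusted p = 0.00158). Gdf10 was at 846, 687 and 807 CPM in young and 753, 456 and 640.4 CPM in aged libraries, so that TN and cold overlapped while 3D cold was the lowest at each age. Its log2 fold change was -0.52 ± 0.111 for 3D cold and -0.14 ± 0.111 for 14D cold (adjusted p = 0.0325). Bmper was not called without the aged TN library (-0.71 for 14D cold, adjusted p = 0.0788). Gdf10 was not called without the aged TN library (-0.39 for 3D cold, adjusted p = 0.137) or the aged 3D cold library (-0.37, adjusted p = 0.560), and thinning to 2000 UMIs ended its call as well (-0.47, adjusted p = 0.130). The 10 Dpp4+ markers were lowest at 3D cold in this class at both ages, with 4608, 3020 and 4143 CPM in young and 4434, 3300 and 4278 CPM in aged libraries, and their part in these differences was not tested. Bmp4 was at 19.1 to 27.0 CPM in this class and did not pass (adjusted p = 0.792).

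**Figure D3:**
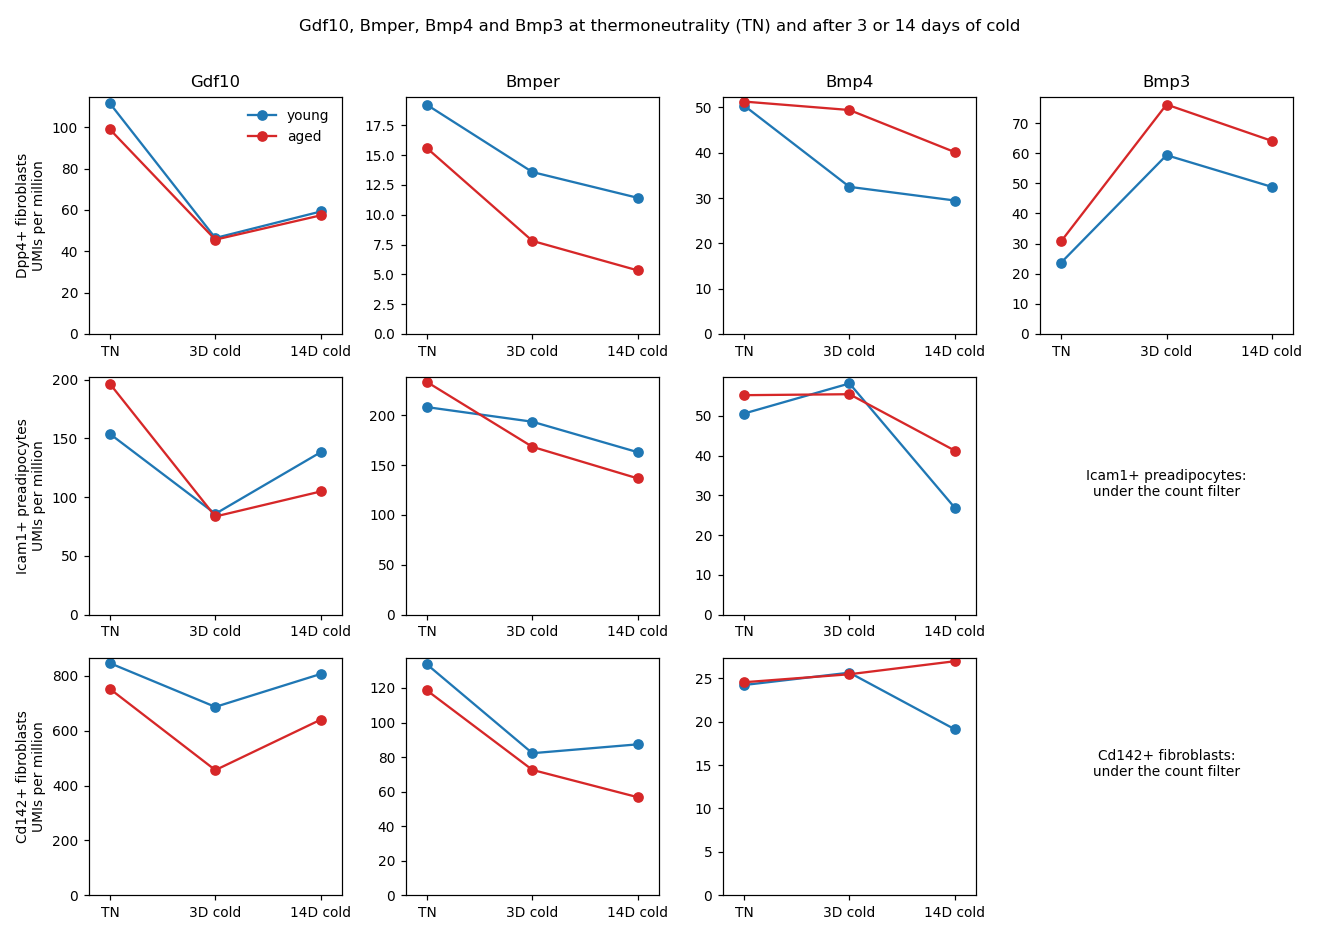
Level in CPM of Gdf10, Bmper, Bmp4 and Bmp3 (columns) in the 3 ASPC classes (rows) at TN, 3D cold and 14D cold, 1 point per library with lines joining libraries of 1 age; axes start at 0. Gdf10 was lowest at 3D cold in every class and age, Bmper was highest at TN, and Bmp3, which was under the count filter in 2 classes, rose in Dpp4+ fibroblasts.

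Promoters of the 3 genes that fell together in the cold in Dpp4+ fibroblasts and Icam1+ preadipocytes are shown for reference. They span 250 bases before to 50 after the start, from RefSeq on GRCm38.p6, and each is written 5′ to 3′ on the gene's strand: Gdf10 from chr14:33923337-33923636 (plus), Bmper from chr9:23222826-23223125 (plus) and Bmp4 from chr14:46390620-46390919 (minus). Capitals mark matches to GGCGCC, a GC-rich element bound by BMP-activated Smads, or to CAGAC, the Smad box, searched on both strands. The Bmp4 and Bmper windows held neither, and the Gdf10 window held 1 of each, which did not overlap. The share of the 32851 promoters in the table with at least 1 match was 11.9% for GGCGCC and 49.6% for CAGAC. Of the 9 genes 5 had a promoter in the table, the others being Bmp6 and Grem1.
Gdf10: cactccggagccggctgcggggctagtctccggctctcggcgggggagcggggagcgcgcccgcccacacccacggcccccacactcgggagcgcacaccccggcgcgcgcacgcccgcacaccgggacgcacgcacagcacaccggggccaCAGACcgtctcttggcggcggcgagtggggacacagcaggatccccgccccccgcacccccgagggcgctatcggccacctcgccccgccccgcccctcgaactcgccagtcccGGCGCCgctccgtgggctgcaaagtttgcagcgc
Bmper: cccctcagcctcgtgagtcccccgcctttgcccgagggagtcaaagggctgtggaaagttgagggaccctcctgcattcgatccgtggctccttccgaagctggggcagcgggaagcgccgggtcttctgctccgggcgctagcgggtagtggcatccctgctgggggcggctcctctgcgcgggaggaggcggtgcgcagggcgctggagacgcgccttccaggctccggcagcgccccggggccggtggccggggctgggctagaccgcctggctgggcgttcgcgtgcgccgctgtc
Bmp4: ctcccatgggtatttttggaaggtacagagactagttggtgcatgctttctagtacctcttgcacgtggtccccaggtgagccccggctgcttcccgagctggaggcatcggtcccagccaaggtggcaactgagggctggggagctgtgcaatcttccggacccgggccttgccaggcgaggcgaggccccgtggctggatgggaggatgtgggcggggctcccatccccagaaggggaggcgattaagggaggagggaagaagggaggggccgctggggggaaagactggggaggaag
The Gdf10, Bmper and Bmp4 windows had a GC content of 77.3%, 72.7% and 64.0%, with 42, 31 and 12 CG pairs, where the median GC content of all promoters in the table was 52.7%. The cyclic AMP response element TGACGTCA and the TATA box TATAAA, both searched on both strands, were in none of the 3 windows and in 1.79% and 13.6% of all promoters. The E-box CACGTG occurred in 7.15% of all promoters and was found 1 time in the Bmp4 window.

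The cold differences were also fitted in single clusters, an analysis chosen after the class results were seen. Bmp3 was called in 5 of the 5 clusters tested, 4 of them Dpp4+ and cluster 2, with log2 fold changes for 3D cold of 0.74 to 2.68. In cluster 8, where its level was highest, it was at 84.8, 138 and 124 CPM at TN, 3D cold and 14D cold in young libraries and at 105, 185 and 187 CPM in aged libraries (0.74 ± 0.096 for 3D cold, adjusted p = 3.69e-05). Gdf10 was called in 9 of the 9 clusters tested and was lower in each, by -1.43 to -0.93 for 3D cold. The unnamed cluster 3, led by genes such as Scg3, Cyp26b1 and Tfpi2, was the highest of these 9 for Gdf10, at 379, 193 and 279 CPM in young and 392, 150.4 and 303 CPM in aged libraries. Bmp4 was called in 4 of 10 clusters, the Dpp4+ cluster 1, the Icam1+ clusters 0 and 5 and the unnamed cluster 2, each lower after 14 days of cold. Bmper was called in 3 of 9, the Icam1+ cluster 0 and the unnamed clusters 2 and 3, each lower at both times. In the Dpp4+ clusters 1, 7, 8 and 10 Bmper was not called (adjusted p = 0.0566, 0.0688, 0.503 and 0.113). Its log2 fold changes for 3D cold there were -0.60, -1.07, 0.45 and -0.93. Bmp2 was called in 2 of 9, in cluster 1 with a log2 fold change for 14D cold of 0.45 ± 0.083 (adjusted p = 0.0070) and in cluster 10 with 0.30 ± 0.109 (adjusted p = 0.0491). Bmp6 was called in none of 7 and Bmp7 in none of 6. Chrdl1 was called in 3 of 9, the Dpp4+ clusters 1, 7 and 8, each higher after 3 days. In cluster 8 it was at 45.7, 90.1 and 37.0 CPM in young and 46.2, 70.3 and 39.0 CPM in aged libraries, and the log2 fold change for 3D cold was 0.80 ± 0.122 (adjusted p = 6.84e-06).

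In endothelial cells none of the 6 genes tested and in SMC/pericytes none of the 8 passed for temperature, against 1.12% and 0.0659% of all genes. At an unadjusted p under 0.05 there were 2 in endothelial cells, Bmp2 and Chrdl1, and 4 in SMC/pericytes, Bmp3, Bmp4, Gdf10 and Bmper. Of all genes tested, 1124 of 10192 in endothelial cells and 617 of 9108 in SMC/pericytes had such a p. DESeq2 called none in either class. In simulated data these temperature tests recovered 50.5% and 45.5% of planted log2 changes of 1, so they could miss such changes. Gdf10 in SMC/pericytes was at 89.04, 43.1 and 36.7 CPM in young and 60.1, 52.03 and 39.0 CPM in aged libraries at TN, 3D cold and 14D cold, with TN above cold at both ages (-1.03 ± 0.237 for 14D cold, adjusted p = 0.297). Bmp6 in endothelial cells averaged 69.0, 70.0 and 59.2 CPM at TN, 3D cold and 14D cold (adjusted p = 0.786).

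The second comparison was between the 3 aged and the 3 young libraries, with temperature as a term. In Dpp4+ fibroblasts 3 of the 8 genes tested were called, against 15.7% of all genes. Bmp3 and Bmp4 were higher and Bmper lower in aged libraries. Over all 8 genes the median log2 fold change was 0.08, and over all genes tested it was -0.00090.

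Bmp3 averaged 44.0 ± 18.3 CPM (SD, n = 3 libraries) in young and 57.0 ± 23.5 CPM in aged Dpp4+ fibroblasts. The age groups overlapped, as temperature moved the gene, but the aged library was higher at each of the 3 temperatures (30.8 against 23.7, 76.2 against 59.4 and 64.1 against 48.8 CPM). The log2 fold change was 0.36 ± 0.058 (SE; adjusted p = 0.00194), and no left-out library ended the call. In single clusters Bmp3 was called for age in clusters 1 and 8 (0.45 ± 0.103 and 0.42 ± 0.077, adjusted p = 0.0229 and 0.000685). It was not called in clusters 7 and 10 (0.45 ± 0.136 and 0.55 ± 0.154, adjusted p = 0.0689 and 0.0555). In the unnamed cluster 2 it was lower in the aged library at each temperature and not called (-0.67 ± 0.224, adjusted p = 0.0871). Bmp4 averaged 37.5 ± 11.3 CPM in young and 46.9 ± 5.98 CPM in aged libraries, with 50.4 against 51.3 CPM at TN, 32.5 against 49.4 CPM at 3D cold and 29.5 against 40.1 CPM at 14D cold. Its log2 fold change was 0.34 ± 0.098 (adjusted p = 0.0405). It was 0.20 without either the young 3D cold library (adjusted p = 0.310) or the aged 3D cold library (adjusted p = 0.301), and the call was lost. Either omission leaves the other 3D cold library fitted by its own temperature term, so both are nearly the same test of age. DESeq2 gave a log2 fold change of 0.34 and did not call Bmp4 (adjusted p = 0.0705). In single clusters Bmp4 was at 0.32 to 0.37 in the 4 large Dpp4+ clusters 1, 7, 8 and 10 and was called in none of them (adjusted p = 0.0593, 0.232, 0.0743 and 0.319). It was called in the unnamed cluster 2 (0.41 ± 0.108, adjusted p = 0.0343).

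Bmper averaged 14.7 ± 4.02 CPM in young and 9.57 ± 5.35 CPM in aged Dpp4+ fibroblasts and was lower in the aged library at each temperature. The log2 fold change was -0.70 ± 0.138 (adjusted p = 0.00606), and without the young 3D cold library it was -0.66 (adjusted p = 0.0523). With cells thinned to 2000 UMIs it was -0.36 (adjusted p = 0.277), and the call was lost. The clusters of the class were unequally shared between the ages. Cluster 1 held 65.6% of the aged TN and 39.2% of the young TN Dpp4+ fibroblasts, and cluster 7 held 7.90% and 28.6%. Within single Dpp4+ clusters Bmper was called for age in cluster 1 alone, at -0.94 ± 0.141 (adjusted p = 0.00214). In cluster 7 it was at 16.6, 10.1 and 9.59 CPM in young and 30.1, 9.49 and 5.63 CPM in aged libraries, which overlapped (0.15 ± 0.265, adjusted p = 0.844).

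Bmp7 was at 93.7, 88.2 and 99.0 CPM in young and 85.3, 80.4 and 86.4 CPM in aged libraries at TN, 3D cold and 14D cold, without overlap, yet the log2 fold change of -0.17 ± 0.058 did not pass (adjusted p = 0.0688). In single clusters it was called in 3 of 6, each lower in aged libraries, namely the Dpp4+ cluster 7 (-0.38 ± 0.094, adjusted p = 0.0283) and the unnamed clusters 2 and 3. In cluster 7 it was at 90.6, 88.4 and 92.8 CPM in young and 64.7, 69.96 and 75.1 CPM in aged libraries, without overlap. In cluster 8, where Bmp7 was highest, it was 0.04 ± 0.077 (adjusted p = 0.842). Bmp6 was higher in the aged library at each temperature, with 15.6 ± 0.936 CPM in young and 18.9 ± 2.56 CPM in aged libraries (0.25 ± 0.083, adjusted p = 0.0681). Gdf10, Chrdl1 and Bmp2 had adjusted p = 0.293, 0.582 and 0.772. In single clusters Gdf10 was called for age in cluster 8 alone (-0.67 ± 0.180, adjusted p = 0.0229). Chrdl1 and Bmp6 were called in the unnamed cluster 2 alone (-0.45 ± 0.099 and 1.03 ± 0.259, adjusted p = 0.0122 and 0.0257). Without either 14D cold library Bmp2 passed, with a log2 fold change of 0.22 (adjusted p = 0.0368 without the young and 0.0479 without the aged one). Bmp3, Bmp4 and Bmper were called with and without cluster 10.

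Marker sums moved with age in the same class. The 6 Spp1+ fibroblast markers summed to 303 to 734 CPM in young and 21.8 to 68.5 CPM in aged Dpp4+ fibroblasts, where 4 of the 6 had a UMI in the library with the fewest. The 10 adipocyte markers summed to 14.8 to 22.2 CPM in young and 25.9 to 37.8 CPM in aged libraries. The 10 Dpp4+ markers themselves summed to 17364 to 18703 CPM in young and 14293 to 15819 CPM in aged libraries, with a UMI for all 10 in every library. Their part in the age differences was not tested.

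In Icam1+ preadipocytes 1 of the 6 genes tested was called for age, against 12.7% of all genes. Bmp2 was at 47.7, 48.4 and 44.2 CPM in young and 56.8, 61.3 and 55.0 CPM in aged libraries at TN, 3D cold and 14D cold. All aged libraries exceeded all young ones, with a log2 fold change of 0.32 ± 0.069 (adjusted p = 0.0144). Without the young or the aged 3D cold library it was 0.28 in both cases, and the call was lost (adjusted p = 0.218 and 0.211). It was also lost with DESeq2 (0.32, adjusted p = 0.0899) and with cells thinned to 2000 UMIs (0.18, adjusted p = 0.454). The class was made up differently by age, with 53.5% of the aged TN and 21.5% of the young TN cells in cluster 5 and 4.05% and 20.2% in cluster 12. Bmp2 was called within cluster 0 (0.43 ± 0.096, adjusted p = 0.0168), where the ages did not overlap. In clusters 5 and 12 the ages overlapped and it was not called (0.21 ± 0.108 and 0.16 ± 0.118, adjusted p = 0.334 and 0.556). Chrdl1 was lower in aged libraries at TN and 3D cold, with 6.22 and 4.73 CPM in young against 1.43 and 2.52 CPM in aged libraries, but not at 14D cold (5.83 against 5.91 CPM). It did not pass (-0.94 ± 0.318, adjusted p = 0.0852), except without the young or the aged 14D cold library (-1.47, adjusted p = 9.73e-05, and -1.46, adjusted p = 0.000407). Bmp4 had 0.22 ± 0.112 (adjusted p = 0.241) and passed without the young or the aged TN library (0.29, adjusted p = 0.0256, and 0.28, adjusted p = 0.0185). Bmper and Gdf10 had log2 fold changes of -0.08 ± 0.081 and -0.0056 ± 0.109. The 10 Cd142+ markers summed to 1122 to 1343 CPM in young and 1426 to 2026 CPM in aged Icam1+ preadipocytes, all with a UMI in every library, and their part in the Bmp2 difference was not tested. Bmp2 in Cd142+ fibroblasts was lower than in Icam1+ preadipocytes in 5 of 6 libraries.

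In Cd142+ fibroblasts 2 of the 6 genes tested were called for age, against 12.2% of all genes. Bmp2 was at 35.6, 38.1 and 33.9 CPM in young and 57.0, 49.0 and 40.2 CPM in aged libraries at TN, 3D cold and 14D cold, without overlap. The log2 fold change was 0.46 ± 0.108 (adjusted p = 0.00994), and it was 0.35 without the young or the aged TN library (adjusted p = 0.122 and 0.148). It was called neither by DESeq2 (0.45, adjusted p = 0.277) nor with cells thinned to 2000 UMIs (0.59, adjusted p = 0.113). Gdf10 was lower in the aged library at each temperature, with 780 ± 83.1 CPM in young and 616 ± 150 CPM in aged libraries (-0.35 ± 0.091, adjusted p = 0.0171). It was -0.25 without the young or the aged 3D cold library (adjusted p = 0.268 and 0.287), and thinning ended that call too (-0.33, adjusted p = 0.0519). Chrdl1 and Bmper did not pass (-0.18 ± 0.089, adjusted p = 0.237, and -0.28 ± 0.0999, adjusted p = 0.0869). The 10 Icam1+ markers summed to 4850 to 5232 CPM in young and 3028 to 3823 CPM in aged Cd142+ fibroblasts, and their part in these differences was not tested. That list was not particular to its class, with 13724 to 16353 CPM in Icam1+ preadipocytes and 42849 to 61153 CPM in endothelial cells.

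None of the 6 genes tested in endothelial cells and none of the 8 tested in SMC/pericytes was called for age, where 1.52% and 0.264% of all genes were. At an unadjusted p under 0.05 there were 3 in endothelial cells, Bmp6, Gdf10 and Chrdl1, and 1 in SMC/pericytes, Bmp7, and DESeq2 called none in either class. Of all genes tested, 1362 of 10192 in endothelial cells and 983 of 9108 in SMC/pericytes had such a p. In simulated data these age tests recovered 70.5% and 75% of planted log2 changes of 1. Endothelial Bmp6 was at 63.5, 51.9 and 54.1 CPM in young and 74.5, 88.0 and 64.2 CPM in aged libraries, without overlap of the ages (0.45 ± 0.128, adjusted p = 0.124). Within the capillary-type cluster 11 the ages overlapped, with 105, 90.0 and 88.0 CPM in young and 130.2, 124 and 80.5 CPM in aged libraries.

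**Figure D4:**
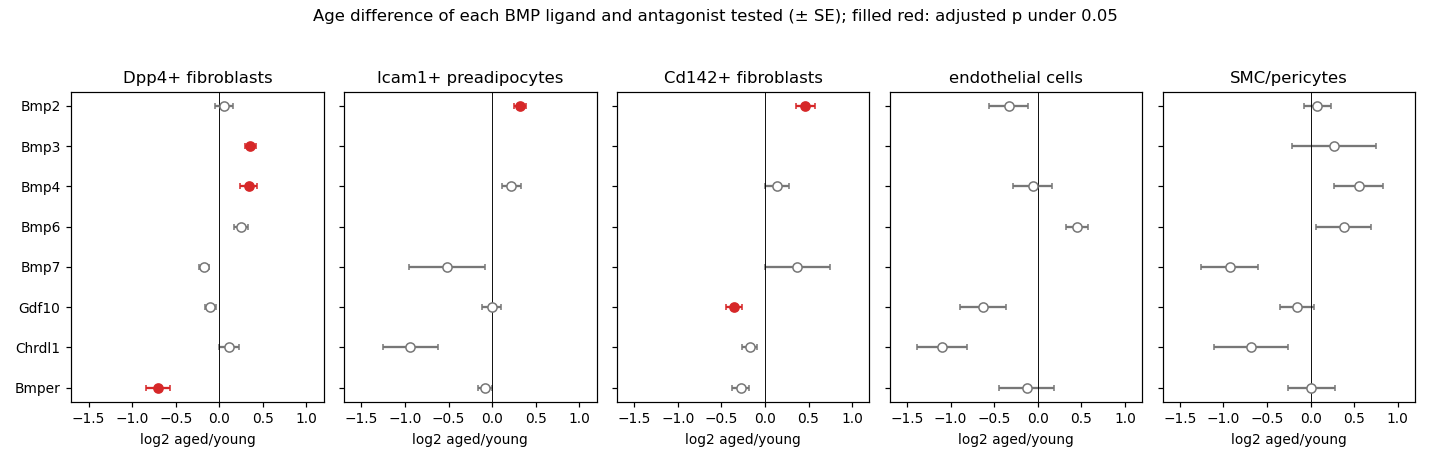
Log2 fold change of aged over young libraries with its SE for each of the genes tested in the 5 classes; filled red points had an adjusted p under 0.05 and open grey points did not. The called points were Bmp3, Bmp4 and Bmper in Dpp4+ fibroblasts, Bmp2 in Icam1+ preadipocytes, and Bmp2 and Gdf10 in Cd142+ fibroblasts.

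Whether the age difference itself depended on the class was tested on pairs of ASPC classes within the same libraries. None of the genes tested was called in any of the 3 pairs, against 1.96% of all genes for Icam1+ preadipocytes minus Dpp4+ fibroblasts, 2.06% for Cd142+ minus Dpp4+ fibroblasts and 2.95% for Cd142+ fibroblasts minus Icam1+ preadipocytes. In simulated data these tests recovered 55.5%, 38.5% and 31% of planted log2 changes of 1, in the same order. The lack of calls therefore cannot decide whether the age difference depended on the class. At an unadjusted p under 0.05 there were 2 in the first pair, Chrdl1 and Bmper, 2 in the second, Bmp2 and Bmper, and 1 in the last, Chrdl1. Of all genes tested, 1906 of 13328, 1474 of 12340 and 1713 of 11934 had such a p in these pairs. For Bmper, which was called in Dpp4+ fibroblasts alone, the difference was 0.62 ± 0.194 log2 units in the first pair (adjusted p = 0.167) and 0.39 ± 0.130 in the second (adjusted p = 0.175). For Bmp2 the difference was 0.25 ± 0.181 (adjusted p = 0.599) and 0.44 ± 0.159 (adjusted p = 0.227).

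Whether cold, 3D and 14D together, differed from TN by another amount in aged than in young libraries was tested with an age by cold term, added after the data were seen. In edgeR's quasi-likelihood test none of the genes tested was called in any class, where 0% of all genes were. In simulated data this test recovered 6%, 8% and 2.5% of planted log2 changes of 1 in Dpp4+, Icam1+ and Cd142+ cells. It recovered 0% and 3.5% in endothelial cells and SMC/pericytes, so the lack of calls cannot decide whether the ages differed. At an unadjusted p under 0.05 there were Bmp4 in Dpp4+ fibroblasts, Chrdl1 in Icam1+ preadipocytes, Gdf10 in endothelial cells and Gdf10 and Chrdl1 in SMC/pericytes. Of all genes tested, 306 of 12688, 392 of 12640 and 231 of 10721 had such a p in Dpp4+, Icam1+ and Cd142+ cells. In endothelial cells and SMC/pericytes 467 of 10192 and 647 of 9108 did. The difference was 0.50 ± 0.196 log2 units for Bmp4 in Dpp4+ fibroblasts (adjusted p = 1.00), so that its ratio of cold to TN was higher in aged than in young libraries.

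Of 66 other genes of the BMP pathway, 14 of 47 tested in Dpp4+ fibroblasts were called for age, 5 higher and 9 lower in aged libraries, against 15.7% of all genes. In Icam1+ preadipocytes 14 of 47 were called, 10 higher and 4 lower, against 12.7%, and in Cd142+ fibroblasts 13 of 42, 6 higher and 7 lower, against 12.2%. Their median log2 fold changes were 0.02, 0.14 and 0.04, where those of all genes tested were -0.00090, -0.0012 and -0.0051. Endothelial cells had 2 calls of 35, both lower, against 1.52%, and SMC/pericytes 0 of 36, against 0.264%. Among other secreted modulators, Bmp1, a protease that cleaves the antagonist chordin, was lower in all 3 ASPC classes (log2 -0.39 ± 0.065, -0.51 ± 0.065 and -0.57 ± 0.107 in Dpp4+, Icam1+ and Cd142+ cells). The antagonist Nbl1 rose in Cd142+ fibroblasts from 223 ± 26.9 CPM in young to 340 ± 39.3 CPM in aged libraries. Nbl1 was also called for age in Icam1+ preadipocytes, for which no value is given here. Kcp, a chordin-like modulator, fell in Dpp4+ fibroblasts (-1.03 ± 0.140) and Icam1+ preadipocytes (-2.18 ± 0.253). The ligand Gdf6 rose in Icam1+ preadipocytes from 1.96 ± 0.356 to 5.33 ± 0.938 CPM, and Fstl1, a follistatin-like protein, fell in Dpp4+ fibroblasts (-0.49 ± 0.061).

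Among the receptors, Neo1, a coreceptor that works with repulsive guidance molecules, was lower in aged libraries of all 3 ASPC classes. It fell from 69.1 ± 2.09 to 32.6 ± 4.31 CPM in Dpp4+ fibroblasts, from 38.9 ± 4.81 to 23.6 ± 4.09 CPM in Icam1+ preadipocytes and from 23.1 ± 1.83 to 15.3 ± 2.11 CPM in Cd142+ fibroblasts. The type I receptors Acvr1 and Acvrl1 fell in Dpp4+ fibroblasts (-0.28 ± 0.068 and -0.37 ± 0.065). Of the intracellular inhibitors, Smad7 rose in Icam1+ preadipocytes (0.47 ± 0.083) and Cd142+ fibroblasts (0.32 ± 0.088), Smurf2, a ubiquitin ligase, rose in Dpp4+ fibroblasts (0.57 ± 0.060) and Icam1+ preadipocytes (0.33 ± 0.077), and Smurf1 rose in Icam1+ preadipocytes (0.36 ± 0.090). The target Id3 was higher in aged libraries of the 3 ASPC classes, with 999 ± 101 against 1261 ± 139 CPM in Dpp4+, 489 ± 25.6 against 678 ± 84.2 CPM in Icam1+ and 977 ± 67.3 against 1345 ± 127 CPM in Cd142+ cells. Runx2, a bone transcription factor among the targets, rose in all 3 (2.40 ± 0.220, 0.91 ± 0.096 and 2.08 ± 0.320), from 0.721 ± 0.236 to 3.85 ± 0.849 CPM in Dpp4+ fibroblasts. Msx1, a homeobox target, rose in Icam1+ preadipocytes (0.59 ± 0.104).

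Temperature called 6 of the 47 other pathway genes in Dpp4+ fibroblasts, 3 of 47 in Icam1+ preadipocytes and 6 of 42 in Cd142+ fibroblasts, against 7.08%, 5.85% and 3.17% of all genes, and none in the other 2 classes. The targets Id2 and Msx1 fell in Dpp4+ and Cd142+ fibroblasts. Id2, a helix-loop-helix inhibitor, had log2 fold changes for 3D and 14D cold of -0.33 ± 0.094 and -0.53 ± 0.095 in Dpp4+ fibroblasts (adjusted p = 0.0197) and -0.86 ± 0.118 and -0.63 ± 0.120 in Cd142+ fibroblasts (adjusted p = 0.00116). Id1, of the same family, fell in Dpp4+ fibroblasts (-0.56 ± 0.141 and -0.62 ± 0.144, adjusted p = 0.0390). Of the antagonists, Fst, follistatin, fell in Cd142+ fibroblasts (-0.57 ± 0.110 and -0.38 ± 0.112, adjusted p = 0.0175). The rule for naming used age calls alone, so these genes were picked with their temperature values in view.

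The genes most like each of the 9 over the 30 sums of 5 classes in 6 libraries were found by Pearson's r of log2(CPM + 1). The sums of 1 library share mice and depth, and r mostly followed the classes. The nearest to Bmp3 were Krtdap and Itgb7 (r = 0.97 for both) and to Bmp7 Sbsn (0.98) and Aldh1a3 (0.97). For Bmp2 they were Dock11 and Snx18 (0.96 for both), for Bmp4 Klf4 and Nav1 (0.88 for both) and for Bmp6 Lims2 and Mgll (0.96 for both). For Gdf10 they were Sned1 and Serpina3n (0.95 for both), for Chrdl1 Sfrp4 (0.96) and Plac8 (0.94), and for Bmper Lum (0.98) and Tmem119 (0.96). Between the 9 genes, Bmp3 and Bmp7 were most alike (0.94), and Bmp6 and Bmper were most opposed (-0.94). Grem1 had too few UMIs for this measure.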

How the data were processed

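Single-cell RNA was measured in 6 libraries. The deposited files hold raw UMI counts per gene and barcode, which the authors made with Cell Ranger on mm10 (the submitters' processing notes also name R 4.1.1 and Seurat). The 9 genes and the pathway lists were chosen with earlier results of these data known.

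Barcodes with over 200 genes and within 3 median absolute deviations of their library were kept, normalized to 10000 UMIs and clustered on 6000 variable genes (15 principal components, 20 neighbours, Leiden resolution 1.0; leidenalg 0.10.2, Python 3.11.15). A cluster was named from at least 3 markers and 50% of a list, a marker being detected in 10% of cells at 1.5 times the other clusters. The 5230 cells with a high doublet score were kept, and clusters with over 50% of them got no name.

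UMIs were summed per library and class and tested with edgeR 4.0.16 in R 4.3.3 (TMM factors, filterByExpr, quasi-likelihood F test, Benjamini-Hochberg adjustment over all genes tested, threshold 0.05), with age and temperature as terms, which leaves 2 residual degrees of freedom. CPM values are plain shares without TMM factors, and log2 fold changes come from the fit. For age by class, 12 sums were fitted with a term for each library (4 residual degrees of freedom). SE is the log2 fold change divided by the root of F. With 1 library per age and temperature, no replicate libraries measure the spread within a condition. P-values of the age and temperature tests rest on how far the libraries depart from additive terms. That departure may be technical or a cold response that differs by age. Age by cold was tested with 3D and 14D cold pooled (2 residual degrees of freedom), while age by each time in the cold leaves none. Library totals of 52068837 to 88508349 UMIs limit the precision. Shares of cells with a UMI cover counting error only. DESeq2 1.42.0, RLE factors, no count filter, missing terms, left-out libraries, thinning, other cell limits, doublet removal, resolution 0.5 and a per-cell marker gate were tried as alternatives. In the age test, leaving out the young or the aged library of a temperature leaves the other fitted by its own temperature term. Both omissions are then nearly the same test, rather than separate losses or gains of a call. Fits without 1 library also have fewer residual degrees of freedom, so a lost call alone does not show a changed estimate. The fits were tested on simulated data. Other pathway genes were named as the 3 per role with the lowest adjusted p for age in each ASPC class (1 of them is not reported here), and likeness used genes with a mean of at least 10 CPM.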

Additional observations from a re-analysis of the deposited data

Results flagged for a closer look

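In 5 cases both cold libraries of the young mice moved one way from their TN library and both cold libraries of the aged mice the other way. Each rests on 1 library per age and temperature, and the cold values of an age share 1 TN library. The difference between ages was tested as an age by cold term with 3D and 14D cold together (edgeR's quasi-likelihood test, added after the data were seen), and none of the 5 passed. In simulated data that test recovered 0% to 8% of planted log2 changes of 1, so it could not decide whether the ages differed. Values are log2 ratios of CPM to TN of the same age, for 3D cold and then 14D cold.

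Bmp2 in Dpp4+ fibroblasts was at 0.14 and 0.60 in young and -0.16 and -0.0079 in aged libraries, and the aged minus young difference was -0.48 ± 0.277 (adjusted p = 1.00). Chrdl1 in Icam1+ preadipocytes, where it was at 1.43 to 6.22 CPM, was at -0.40 and -0.093 in young and 0.82 and 2.04 in aged libraries (difference 1.77 ± 0.638, adjusted p = 1.00). Chrdl1 in SMC/pericytes was at -0.82 and -1.39 in young and 1.95 and 1.46 in aged libraries, with the aged TN library the lowest of the 6 at 14.1 CPM (difference 2.87 ± 0.431, adjusted p = 0.0774). Gdf10 in endothelial cells was at 0.35 and 0.45 in young and -1.27 and -0.64 in aged libraries, from 20 to 89 UMIs per library (difference -1.36 ± 0.426, adjusted p = 0.982). Bmp7 in SMC/pericytes was at -0.64 and -0.46 in young and 0.10 and 0.96 in aged libraries, from 9 to 46 UMIs per library (difference 1.12 ± 0.598, adjusted p = 0.778). The 10 Dpp4+ markers in SMC/pericytes were highest in the young TN library at 5954 CPM and lowest in the aged TN library at 2286 CPM. Their part in the Chrdl1 and Bmp7 patterns of this class was not tested.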

How the results depend on the processing

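Each of the 15 calls was lost under at least 1 alternative and none turned direction. Bmp3 for age and Bmp3 and Gdf10 for temperature in Dpp4+ fibroblasts were lost only without the other factor as a term. Of 76 values not called, 28 passed somewhere. The cause was not tested. Without the temperature term, 0 of the 9 genes were called for age in any ASPC class (3 in Dpp4+, 1 in Icam1+ and 2 in Cd142+ cells as reported), and without the age term 0 for temperature (4, 3 and 2 as reported). DESeq2 called 0 for age in Icam1+ and 1 in Cd142+ cells, and cells thinned to 2000 UMIs gave 0 in both and 1 for temperature in Cd142+ cells. With no count filter there were 2 for age and 5 for temperature in Icam1+ cells, 2 and 2 in endothelial cells, 1 and 1 in SMC/pericytes, and 2, 1 and 2 for Icam1+ minus Dpp4+, Cd142+ minus Dpp4+ and Cd142+ minus Icam1+ (0 as reported in these 2 classes and 3 pairs). The marker gate gave 5 for age in Dpp4+ cells, 1 for temperature in Cd142+ cells and 1 in each pair with Dpp4+ cells. Resolution 0.5 gave 1 for age in Cd142+ and 2 in endothelial cells, and limits of 1000 to 7000 genes gave 1 for temperature in Cd142+ cells. Leaving out 1 library gave 1 to 4 for age and 4 to 6 for temperature in Dpp4+ cells, 0 to 2 and 0 to 6 in Icam1+ cells, 1 to 2 and 0 to 4 in Cd142+ cells, 0 to 1 and 0 to 2 in SMC/pericytes, and 0 to 1 in each pair. Over all genes, the counts called ranged over the alternatives from 598 to 2642 for age in Dpp4+ cells (1993 as reported), 305 to 2334 in Icam1+ (1609), 461 to 1548 in Cd142+ (1312), 16 to 499 in endothelial cells (155) and 0 to 274 in SMC/pericytes (24). For temperature they ranged from 0 to 2185 (898), 0 to 2247 (739), 0 to 748 (340), 3 to 510 (114) and 0 to 273 (6). For the pairs they ranged from 95 to 694 (261), 155 to 470 (254) and 128 to 718 (352). The alternatives without cluster 10, with clusters 2 and 3 added, the single-cluster fits, the age by cold term, and the temperature fits under thinning, gene limits, doublet removal and resolution 0.5 were chosen after seeing the data. Pairing by replicate number was not possible because those numbers are accession order only. The age test already pairs the young and aged libraries of each temperature through its temperature term. The aged 14D cold library was the shallowest, with a median of 2588 UMIs per barcode, and Grem1 could not be tested at this depth.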
